A study of Mus musculus with 6 samples.

Results

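Immediate early response genes were examined in RNA-seq counts of whole spleen from NOD.B10 mice, a model of primary Sjögren's syndrome (pSS), and BL/10 mice, its healthy control strain. The 10 genes (Fos, Fosb, Jun, Junb, Egr1, Egr2, Ier2, Atf3, Dusp1 and Nr4a1) were taken by name from the 47729 genes of the count table. No measured value enters that rule, but the list was drawn up with earlier results of these data known. All 10 passed the filter on low counts, and they were tested along with 15330 genes in all. The NOD.B10 group (NOD.B10Sn-H2b/J) held 3 females labelled as 26 weeks old, and the BL/10 group (C57BL10/SnJ) held 3 females, of which replicate 1 was labelled as 26 weeks and replicates 2 and 3 as 36 weeks. The paper describes the controls as matched in age to 26 week NOD.B10 females, which the 36 week labels contradict. None of the animals was treated or carried an engineered allele according to the labels.

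The labels did not settle the strain. Sample descriptions and the columns of the count table gave the strain used here, whereas the titles and strain fields gave the opposite strain for all 6 libraries, so each direction below would be turned under the titles. The ages would then belong to NOD.B10 replicates 2 and 3. The paper reports T cell receptor signaling among the pathways enriched in NOD.B10 spleens. Under the strain used here, T cell markers went in that direction, with 17 of 20 listed genes higher in NOD.B10 and none lower (adjusted p under 0.05 from edgeR). Total counts were between 15662712 and 18298451 per library, and a floor of 3 counts, which covers counting error only, was between 0.164 and 0.192 CPM (reads of a gene relative to the size of its library). Each spleen gave 1 library, and whole tissue was used, so fewer cells of a type and less RNA per cell cannot be told apart. B cell marker genes, which mark the most abundant lymphocyte of the spleen, were detected for 14 of 14 listed genes, with a summed level from 3587 to 6285 CPM. Pancreas acinar genes, which a spleen should not express, made up 1.69% of counts in BL/10 replicate 1 and 0.240% in BL/10 replicate 2, against 0.00253% to 0.0120% in the other libraries. Adipocyte marker genes had a summed level of 302 CPM in BL/10 replicate 3, against 49.4 to 91.5 CPM in the other libraries.

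Immediate early genes are transcribed within minutes of a stimulus from factors that are already present in the cell, such as SRF with its ETS partners and CREB, which are switched on by MAP kinases. Their products are mostly transcription factors that set the later response, and several of them feed back on the kinases. In lymphocytes they are known for their response to antigen receptor engagement, and in myeloid cells for their response to Toll-like receptor ligands.

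Of these 10 genes, Atf3 was lower in NOD.B10 spleens by an adjusted p under 0.05, and no gene was higher at that threshold. The share called was 10.0%, against 17.3% of all tested genes (edgeR's quasi-likelihood test with Benjamini-Hochberg adjustment over 15330 genes, BL/10 as the reference). Split by direction, 9.11% of all tested genes were called higher and 8.22% lower in NOD.B10. The libraries of the strains did not overlap for 5 of the 10 genes, 2 with NOD.B10 above (Junb and Ier2) and 3 with NOD.B10 below (Atf3, Dusp1 and Nr4a1), and 38.0% of all tested genes showed such a separation (20.5% with NOD.B10 above and 17.5% below). An unadjusted p under 0.05 was found for the same count of 5 genes, where 34.2% of all tested genes reached it. The values lay on both sides of 0, with 3 genes above and 7 below. The median log2 fold change was -0.15 over the 10 genes and 0.00 over all tested genes, and the median size of the change was 0.30 against 0.24.

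**Figure D1:**
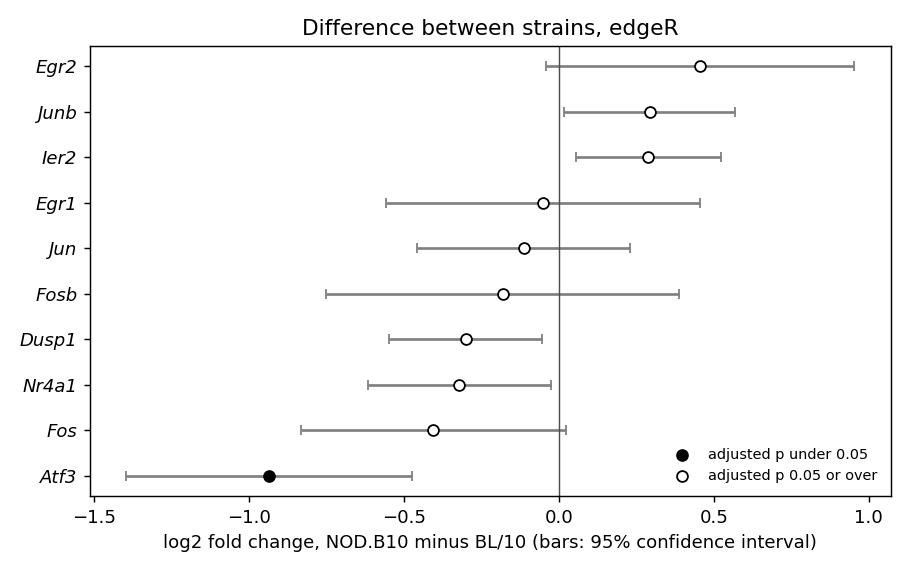
Log2 fold change of each immediate early gene (NOD.B10 minus BL/10, x axis) with its 95% confidence interval, from edgeR on 3 libraries per strain. Atf3, at -0.94, is the gene with a filled point (adjusted p under 0.05), while 3 genes lie to the right of 0 and 7 to the left.

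Levels between genes were compared per length (RPKM, CPM divided by the summed exon length in kilobases). Junb had the highest mean in both strains, with 34.6 ± 2.85 RPKM (SD, n = 3) in NOD.B10 and 28.3 ± 3.77 RPKM in BL/10. It was followed by Ier2, Dusp1, Nr4a1 and Jun in both strains, with means from 27.8 down to 7.61 RPKM in NOD.B10 and from 22.8 down to 8.23 RPKM in BL/10. Egr1 came next, with 3.47 ± 0.834 RPKM in NOD.B10 and 3.59 ± 0.784 RPKM in BL/10 (SD, n = 3). Fosb was the lowest in every library, with at most 0.282 RPKM. Between these lay Atf3, Fos and Egr2, whose order differed by strain. In BL/10 the means were 3.15 RPKM for Atf3, 2.57 RPKM for Fos and 1.41 RPKM for Egr2, and in NOD.B10 they were 1.65, 1.95 and 1.94 RPKM. Atf3 lay above Fos in each BL/10 library and below Fos in each NOD.B10 library, whereas the NOD.B10 libraries of these 3 genes overlapped one another. In BL/10, neighbors with overlapping libraries in this order were Junb and Ier2, Egr1 and Atf3, and Atf3 and Fos.

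**Figure D2:**
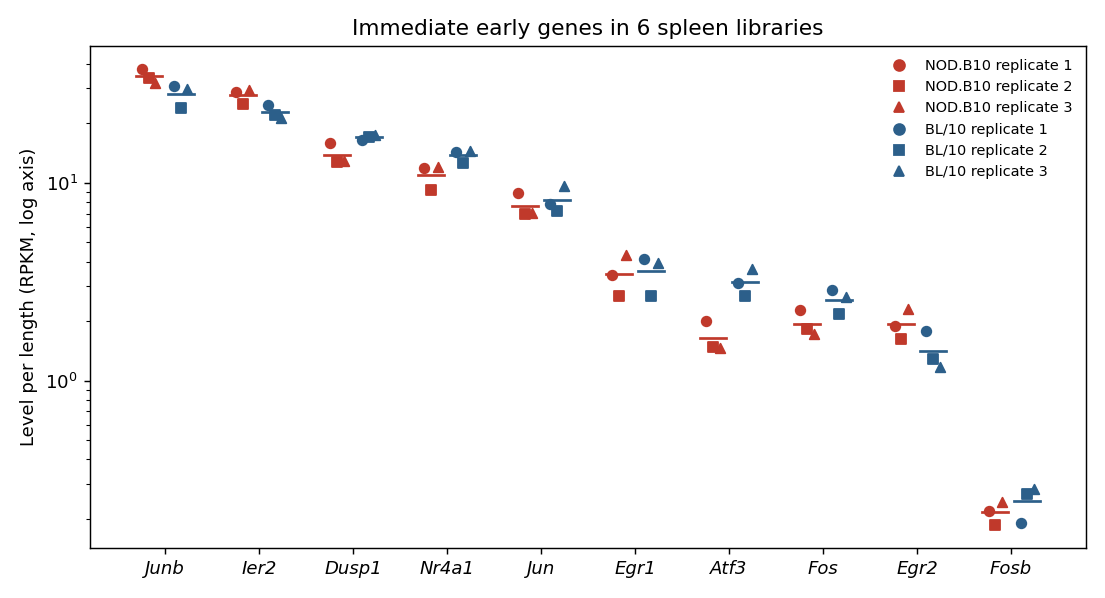
Level per length of each immediate early gene (RPKM, log axis) in the 3 NOD.B10 (red) and 3 BL/10 (blue) spleen libraries, with a line at each mean and a marker shape for each replicate number. Genes are ordered by their mean over strains, from Junb (34.6 and 28.3 RPKM) to Fosb (0.217 and 0.247 RPKM).

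Atf3 (ENSMUSG00000026628), on chromosome 1 from 191170296 to 191218039 of GRCm38, encodes a stress-induced factor of the ATF/CREB family that can dimerize with Jun proteins and is known to restrain Toll-like receptor responses in macrophages. It had 4.31, 3.19 and 3.15 CPM in NOD.B10 replicates 1, 2 and 3, and 6.68, 5.77 and 7.90 CPM in BL/10 replicates 1, 2 and 3. All NOD.B10 libraries lay below all BL/10 libraries, and the lowest BL/10 library was the 36 week replicate 2. The NOD.B10 mean was 3.55 ± 0.656 CPM and the BL/10 mean was 6.78 ± 1.07 CPM (SD, n = 3 for each). The difference was -0.94 as a log2 fold change (SE, the standard error, 0.20, 95% interval from -1.40 to -0.48, adjusted p = 0.0176 from edgeR), or a level 47.7% lower in NOD.B10. The counts behind it were small, 52 to 72 reads per NOD.B10 library and 86 to 139 reads per BL/10 library. DESeq2 also called Atf3 (log2 fold change -0.95, adjusted p = 0.00174). The call was lost without NOD.B10 replicate 2, NOD.B10 replicate 3 or BL/10 replicate 3 (adjusted p = 0.0571, 0.0701 and 0.0549 in edgeR), and with the 26 week libraries alone, where BL/10 has 1 library (log2 fold change -0.91, adjusted p = 0.104 in edgeR).

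Between the strains, neutrophil marker genes moved in the same direction as Atf3. Of 15 listed genes, 13 were lower and none higher in NOD.B10 by adjusted p in edgeR, none was at 0, and their summed level was 2369 to 2729 CPM in NOD.B10 and 6518 to 13616 CPM in BL/10. Mast cell and basophil markers were lower for 6 of 8 listed genes, with a summed level from 47.0 to 55.2 CPM in NOD.B10 and from 75.4 to 93.9 CPM in BL/10. For macrophage and monocyte markers, 3 of 16 genes were higher and 2 lower, and the summed level was 7881 to 9433 CPM in NOD.B10 and 7732 to 7932 CPM in BL/10. Interferon-induced genes were lower for 9 of 15 and higher for none, with a summed level from 597 to 735 CPM in NOD.B10 and from 763 to 1591 CPM in BL/10. Proliferation genes had a median log2 fold change of -0.67, with 1 of 15 lower by the threshold and none higher, and their summed level overlapped between the strains (2750 to 4217 CPM in NOD.B10 and 3442 to 6735 CPM in BL/10). Megakaryocyte markers were lower for 2 of 10 listed genes and higher for none. Their summed level was 804 to 1153 CPM in NOD.B10 and 984 to 1773 CPM in BL/10. BL/10 replicate 2, the lowest BL/10 library for Atf3, also had the lowest BL/10 sum of megakaryocyte markers. For each other list in this paragraph, it had the highest BL/10 sum. The neutrophil sums were 6518, 13616 and 11969 CPM in BL/10 replicates 1, 2 and 3. The part of these cell types and gene groups in the Atf3 difference was not tested.

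The other subunits of the AP-1 factor, which is formed from a Jun protein with a Fos, Jun or ATF partner, were closer between the strains. Fos (ENSMUSG00000021250; chromosome 12 from 85473890 to 85477273) encodes the Fos subunit that binds DNA only with a Jun partner. It had 5.38, 4.30 and 4.05 CPM in the NOD.B10 libraries and 6.79, 5.10 and 6.25 CPM in the BL/10 libraries. NOD.B10 replicate 1 lay above BL/10 replicate 2, so the strains overlapped by this pair of libraries. The log2 fold change was -0.41 (SE 0.18, 95% interval from -0.83 to 0.02, adjusted p = 0.164 from edgeR). Fosb (ENSMUSG00000003545; chromosome 7 from 19302696 to 19310051), the paralog of Fos, was read from 19 to 31 times per library. Its CPM was 1.38, 1.17 and 1.52 in NOD.B10 and 1.19, 1.68 and 1.76 in BL/10, and the strains overlapped. The interval of its log2 fold change of -0.18 ran from -0.75 to 0.39 (adjusted p = 0.639 from edgeR). A change of moderate size in either direction lay within it. The parts of depth and of spread between libraries in this width were not told apart.

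Jun (ENSMUSG00000052684; chromosome 4 from 95049034 to 95052222) encodes the prototype partner of Fos. Its levels were 28.3, 22.2 and 22.4 CPM in NOD.B10 and 24.9, 23.0 and 30.8 CPM in BL/10. The highest library of each strain stood above the other libraries of that strain, and the strains overlapped (log2 fold change -0.11, 95% interval from -0.46 to 0.23, adjusted p = 0.627 from edgeR). Of the exon bases of Jun, 7.28% are shared with Junos on the opposite strand, and strand was not used in counting, so reads in that stretch could not be assigned. Junos itself had 4 to 17 counts per library.

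Junb (ENSMUSG00000052837; chromosome 8 from 84976909 to 84978748) encodes a Jun protein that is a weaker activator than Jun on many targets and that partners with BATF in lymphocytes. It had 69.4, 62.6 and 59.1 CPM in NOD.B10 and 56.9, 44.1 and 55.0 CPM in BL/10. All NOD.B10 libraries were above all BL/10 libraries, and the gap between NOD.B10 replicate 3 and BL/10 replicate 1 was small next to the spread within either strain. The log2 fold change of 0.29 (SE 0.12, 95% interval from 0.02 to 0.57) did not reach the threshold (adjusted p = 0.128 from edgeR). It was 0.18 without BL/10 replicate 2 and 0.16 with the 26 week libraries alone (adjusted p = 0.299 and 0.541).

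Since these genes were read in the same libraries, their counts were also set against each other, which needs no scaling of libraries. For each 100 Junb reads there were 7.75, 6.86 and 6.84 Fos reads in the NOD.B10 libraries and 11.9, 11.6 and 11.4 Fos reads in the BL/10 libraries. The means were 7.15 ± 0.519 (SD, n = 3) and 11.6 ± 0.285 (SD, n = 3), and the lowest BL/10 ratio was 1.47 times the highest NOD.B10 ratio. This ratio held the strains apart although the Fos level alone did not. For Atf3 there were 6.20, 5.10 and 5.32 reads for each 100 Junb reads in NOD.B10 and 11.7, 13.1 and 14.4 in BL/10. Both ratios were picked after the values were seen and are a description with no test. Among all 45 pairs of these 10 genes, the ratio did not overlap between the strains for 22 pairs, or 48.9%. Over all pairs of tested genes the share was 41.1%, taken on log2 CPM with a prior count of 2 and not on raw counts. The share for these genes lay near this background, although the measures differ. For a single ratio, the smallest p of an exact permutation test in this design is 0.1.

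**Figure D3:**
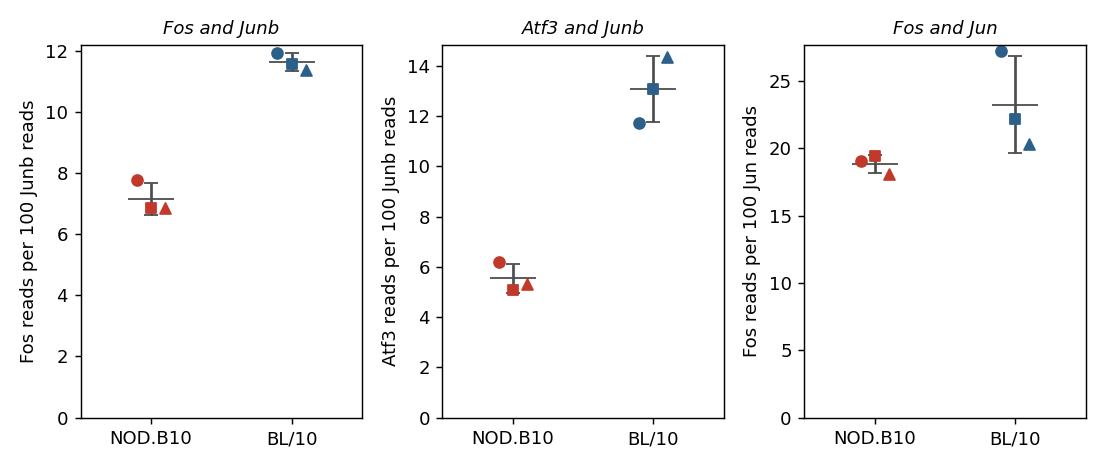
Fos reads for each 100 Junb reads, Atf3 reads for each 100 Junb reads, and Fos reads for each 100 Jun reads in each spleen library (y axes from 0), with mean and SD over 3 libraries per strain and a marker shape for each replicate number. Fos against Junb was 6.84 to 7.75 in NOD.B10 and 11.4 to 11.9 in BL/10, and Fos against Jun was 18.1 to 19.4 in NOD.B10 and 20.3 to 27.2 in BL/10.

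The EGR genes encode zinc finger factors that bind GC-rich sites and are induced through SRF. Egr1 (ENSMUSG00000038418) had 15.3, 12.0 and 19.4 CPM in NOD.B10 and 18.5, 12.1 and 17.7 CPM in BL/10. Replicate 2 was the lowest library in each strain, and the ranges of the strains were almost the same. The log2 fold change was -0.05 (95% interval from -0.56 to 0.46, adjusted p = 0.894 from edgeR). Egr2 (ENSMUSG00000037868; chromosome 10 from 67535475 to 67542188), which in T cells is known for its part in tolerance, had 6.40, 5.53 and 7.81 CPM in NOD.B10 and 6.03, 4.36 and 3.98 CPM in BL/10. BL/10 replicate 1, the 26 week library, lay inside the NOD.B10 range, and the 36 week libraries lay below it. Its log2 fold change of 0.46 (SE 0.21, 95% interval from -0.04 to 0.95) did not reach the threshold (adjusted p = 0.175 from edgeR). Without BL/10 replicate 1, which leaves BL/10 with 36 week libraries, the log2 fold change of Egr2 was 0.65 (adjusted p = 0.0495 from edgeR), and with the 26 week libraries alone it was 0.13 (adjusted p = 0.823).

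Ier2 (ENSMUSG00000053560; chromosome 8 from 84661331 to 84662852) encodes a small nuclear protein and was the gene of this group that lay second in level per length. It had 43.8, 38.3 and 44.7 CPM in NOD.B10 and 37.7, 33.6 and 32.6 CPM in BL/10. The strains did not overlap, but NOD.B10 replicate 2 lay just above BL/10 replicate 1. The log2 fold change was 0.29 (SE 0.10, 95% interval from 0.05 to 0.52, adjusted p = 0.0872 from edgeR). As with Egr2, the threshold was passed without BL/10 replicate 1 (log2 fold change 0.35, adjusted p = 0.0451 from edgeR), the library with the high share of pancreas reads. That fit sets 26 week NOD.B10 against 36 week BL/10 libraries alone, so strain and age cannot be told apart in it. With the 26 week libraries alone, the log2 fold change of Ier2 was 0.16 (adjusted p = 0.561 from edgeR). T cell markers were higher in NOD.B10 for 17 of 20 listed genes and lower for none, none was at 0, and their summed level was 1367 to 1879 CPM in NOD.B10 and 656 to 878 CPM in BL/10, with BL/10 replicate 1 the highest of its strain. Plasma cell markers were higher for 7 of 12 genes and lower for none, with a summed level from 3918 to 4452 CPM in NOD.B10 and from 2589 to 3258 CPM in BL/10. No B cell marker passed the threshold in edgeR (1 of 14 had an unadjusted p under 0.05), but their summed level was 6285 CPM in BL/10 replicate 1, against 3587 and 3934 CPM in BL/10 replicates 2 and 3. The part of these T, plasma and B cell markers in the levels of Junb, Egr2 and Ier2 was not tested.

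Dusp1 (ENSMUSG00000024190; chromosome 17 from 26505590 to 26508519) encodes a nuclear phosphatase that switches off the p38, JNK and ERK kinases and so limits the response that induced it. It had 42.8, 34.3 and 34.8 CPM in NOD.B10 and 44.4, 46.1 and 47.3 CPM in BL/10. All NOD.B10 libraries were below the BL/10 libraries, which lay close together, and NOD.B10 replicate 1 came nearest to them. The log2 fold change of -0.30 (SE 0.11, 95% interval from -0.55 to -0.05) did not pass the threshold (adjusted p = 0.0898 from edgeR). Nr4a1 (ENSMUSG00000023034; chromosome 15 from 101266846 to 101274792), an orphan nuclear receptor also called Nur77 that is widely used as a reporter of antigen receptor signaling, had 29.4, 22.7 and 29.7 CPM in NOD.B10 and 35.4, 31.0 and 35.7 CPM in BL/10. Its libraries were likewise all lower in NOD.B10, with a log2 fold change of -0.32 (SE 0.13, 95% interval from -0.62 to -0.03, adjusted p = 0.118 from edgeR). Without NOD.B10 replicate 2, the lowest library, it was -0.20 (adjusted p = 0.257). Neither Dusp1 nor Nr4a1 reached the threshold under any of the alternatives tried.

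**Figure D4:**
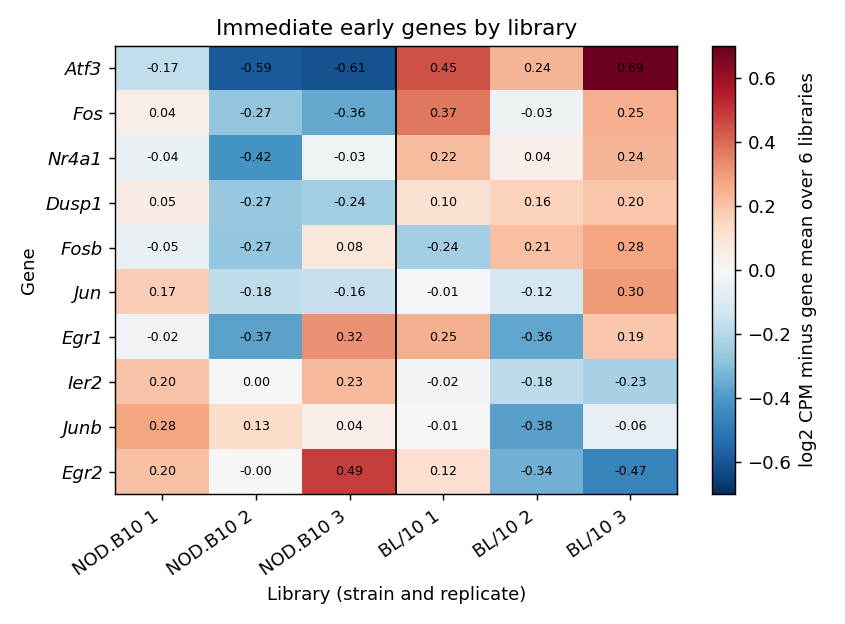
Log2 CPM of each immediate early gene in each spleen library, minus the mean of the gene over the 6 libraries (color and printed value), with genes ordered by their log2 fold change. Atf3 ranges from -0.61 in NOD.B10 replicate 3 to 0.69 in BL/10 replicate 3, and NOD.B10 replicate 2 is the lowest library for 5 of the 10 genes.

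The libraries of a strain also differed from one another, and how often other genes show the same extremes was not counted. NOD.B10 replicate 2 was the lowest of the 6 libraries for 5 of the 10 genes (Fosb, Jun, Egr1, Dusp1 and Nr4a1), and BL/10 replicate 3 was the highest for 5 (Fosb, Jun, Atf3, Dusp1 and Nr4a1). BL/10 replicate 3 also had the highest sum of adipocyte markers, and the part of such tissue in these levels, Atf3 among them, was not tested. Averaged over the 10 genes, the log2 deviation from the mean was -0.22 in NOD.B10 replicate 2 and 0.14 in BL/10 replicate 3. It was 0.07 and -0.03 in NOD.B10 replicates 1 and 3, and 0.12 and -0.08 in BL/10 replicates 1 and 2, so the strains overlapped. The summed level of the 10 genes also overlapped, from 206 to 246 CPM in NOD.B10 and from 207 to 239 CPM in BL/10. The genes differed in how far they ranged, as the highest library was 1.37 times the lowest for Ier2 and 2.51 times for Atf3. The average was also set against 10181 other genes with a mean of at least 10 CPM. By the root mean square difference of log2 CPM over 6 libraries, the 5 nearest were Actg1, Ahnak, Cd1d1, Tmcc3 and Jam3 (0.035 to 0.037). Among so many candidates over so few libraries, some near genes can be found for most profiles, and no background for this distance was taken. The average also mixes genes with differences in opposite directions.

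Promoter sequence was searched for CRE-type letters, since CREB and ATF proteins, Atf3 among them, bind such sites. In RefSeq (GRCm38.p6), a sequence of the 250 bases before the start was matched for 8 of the 10 genes. No sequence was matched for Egr1 and Ier2, so neither was searched for any motif. The letters TGACG, the core of a cyclic AMP response element (CRE), occurred on either strand in 6 of the 8 (Fos, Fosb, Junb, Atf3, Dusp1 and Nr4a1), against 17.9% of 27025 mouse promoter stretches of the same length. The whole palindrome TGACGTCA, which holds TGACG on both strands, was found in Dusp1 and in 1.62% of all stretches. The EGR motif GCGNGGGCG was found in Fosb and Nr4a1 and in 4.65% of all stretches. The AP-1 motif TGANTCA, the ETS motif CCGGAAG and the CArG box bound by SRF were found in none of the 8, and in 6.87%, 7.05% and 1.40% of all stretches. A match of letters does not show a bound site, and sites farther upstream were not searched. The searched stretches of these genes were 58.4% to 74.4% G or C. The background was all stretches, not matched on base composition, so the shares do not show an enrichment beyond composition. The stretches are given 5′ to 3′ along the gene, with the matched letters in capitals. Of the 6 genes with TGACG, 5 are printed, picked after the matches were seen (Fosb is not printed). They are Atf3, the gene that passed the test (chr1:191183334-191183583, minus strand), Fos (chr12:85473640-85473889, plus strand), Junb (chr8:84978749-84978998, minus strand), Dusp1 (chr17:26508473-26508722, minus strand) and Nr4a1 (chr15:101266596-101266845, plus strand).
Atf3: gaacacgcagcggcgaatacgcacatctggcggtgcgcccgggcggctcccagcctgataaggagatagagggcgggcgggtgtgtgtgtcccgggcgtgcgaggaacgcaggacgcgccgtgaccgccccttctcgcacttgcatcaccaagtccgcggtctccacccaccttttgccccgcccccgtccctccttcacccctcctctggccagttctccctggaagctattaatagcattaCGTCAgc
Fos: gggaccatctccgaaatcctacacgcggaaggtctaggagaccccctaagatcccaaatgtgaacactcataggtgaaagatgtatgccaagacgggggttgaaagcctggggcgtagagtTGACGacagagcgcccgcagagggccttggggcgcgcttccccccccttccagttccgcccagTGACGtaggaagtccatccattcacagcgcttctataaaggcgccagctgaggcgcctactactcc
Junb: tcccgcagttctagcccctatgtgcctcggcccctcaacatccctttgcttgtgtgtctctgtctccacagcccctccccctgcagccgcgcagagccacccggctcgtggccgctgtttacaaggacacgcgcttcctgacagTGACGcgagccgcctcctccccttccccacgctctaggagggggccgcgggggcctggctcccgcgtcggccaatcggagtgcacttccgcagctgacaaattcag
Dusp1: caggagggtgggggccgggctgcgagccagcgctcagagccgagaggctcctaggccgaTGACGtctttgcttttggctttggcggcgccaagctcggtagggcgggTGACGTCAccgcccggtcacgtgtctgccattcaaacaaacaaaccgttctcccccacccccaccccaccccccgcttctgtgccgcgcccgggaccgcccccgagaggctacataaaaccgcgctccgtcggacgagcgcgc
Nr4a1: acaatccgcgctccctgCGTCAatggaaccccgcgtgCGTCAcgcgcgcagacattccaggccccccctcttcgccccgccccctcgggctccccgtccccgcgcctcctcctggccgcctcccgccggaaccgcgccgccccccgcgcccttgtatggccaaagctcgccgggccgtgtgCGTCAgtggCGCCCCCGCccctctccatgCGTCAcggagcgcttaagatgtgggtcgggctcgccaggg

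In Atf3 the match lay on the opposite strand just before the RefSeq start, from -7 to -3, and in Dusp1 the palindrome lay from -143 to -136. The RefSeq start of Atf3 lies inside the span given for the gene in the count table, which reaches to a transcript start farther upstream that was not searched. Fos held TGACG from -66 to -62 and from -129 to -125, and Junb from -106 to -102. Nr4a1 held it at 4 places, all on the opposite strand, and its EGR motif lay from -60 to -52. Of these genes, Atf3, Dusp1 and Nr4a1 had all NOD.B10 libraries below BL/10, Junb had all above, and Fos overlapped. Fosb, the other gene with TGACG, overlapped too, as did Jun and Egr2, which were searched and held no TGACG. Over all tested genes, 17.5% had all NOD.B10 libraries below and 20.5% had all above. Only Atf3 among them passed the threshold in edgeR, and the part of these letters in the levels was not tested.

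Related genes were then examined by lists of their family members, other immediate early genes and the upstream factors. Of 99 listed genes, 97 were tested, of which 6 passed the threshold in edgeR, 3 higher and 3 lower in NOD.B10. This share of 6.19% lay below the 17.3% of all tested genes, and the median log2 fold change of the related genes was 0.08.

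Of 15 other AP-1 and bZIP partner genes, 1 was higher and none lower. This was Batf, which forms dimers with Jun proteins in T and B cells. Its levels were 28.3, 25.4 and 24.8 CPM in NOD.B10 and 21.3, 15.6 and 14.1 CPM in BL/10, with no overlap (log2 fold change 0.62, SE 0.16, adjusted p = 0.0363 from edgeR). The 26 week BL/10 library was the highest of its strain, and with the 26 week libraries alone the log2 fold change of Batf was 0.30 (adjusted p = 0.309). Of 9 other DUSP phosphatases, Dusp6, which acts on ERK, was higher and none was lower. It had 74.7, 60.4 and 81.8 CPM in NOD.B10 and 53.9, 46.1 and 53.6 CPM in BL/10 (log2 fold change 0.50, SE 0.13, adjusted p = 0.0356 from edgeR). This direction is opposite to that of the Dusp1 values.

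Of 43 tested genes among other immediate early genes, 1 was higher and 2 were lower. Socs3, the feedback inhibitor of cytokine receptors that signal through STAT3, had 49.5, 45.8 and 37.8 CPM in NOD.B10 and 23.8, 22.6 and 19.9 CPM in BL/10. Its log2 fold change of 1.00 (SE 0.13, adjusted p = 0.00208 from edgeR) passed the threshold of 0.05 under all 15 alternatives in which it was fitted. Ccn1, which encodes a secreted matrix protein, had 12.7, 6.20 and 5.34 CPM in NOD.B10 and 24.9, 14.2 and 22.8 CPM in BL/10 (log2 fold change -1.36, SE 0.35, adjusted p = 0.0346 from edgeR). Plk2, a stress-induced polo-like kinase, had 7.36, 7.06 and 5.96 CPM in NOD.B10 and 11.9, 9.79 and 11.3 CPM in BL/10 (log2 fold change -0.70, SE 0.14, adjusted p = 0.0153 from edgeR).

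None of the 4 tested genes among other EGR members and their corepressors and neither of the NR4A receptors Nr4a2 and Nr4a3 passed the threshold in edgeR, and none of them had an unadjusted p under 0.05. Egr4 had no reads in any library. Upstream, 25 genes for SRF, its partners, CREB and MAP kinases were tested. Mapk3, which encodes the kinase ERK1, was lower, with 74.8, 73.0 and 71.8 CPM in NOD.B10 and 87.8, 98.1 and 102 CPM in BL/10 (log2 fold change -0.39, SE 0.09, adjusted p = 0.0204 from edgeR), and none was higher. The calls of Batf, Dusp6, Ccn1, Plk2 and Mapk3 were each lost without NOD.B10 replicate 3 and without BL/10 replicate 3. Leaving out other libraries also ended the call for Batf and Mapk3 (NOD.B10 replicates 1 and 2 and BL/10 replicate 2), Dusp6 (NOD.B10 replicate 1 and BL/10 replicate 2) and Ccn1 (NOD.B10 replicate 2 and BL/10 replicate 1). With the 26 week libraries alone, the log2 fold change of Mapk3 was -0.26 (adjusted p = 0.217 from edgeR) and 1 related gene was called. Without BL/10 replicate 1, where age cannot be told apart from strain, 19 related genes were called. Of 13 heat shock genes, which respond to stress of the cell, 1 was higher and 3 were lower, with a median log2 fold change of -0.27.

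**Figure D5:**
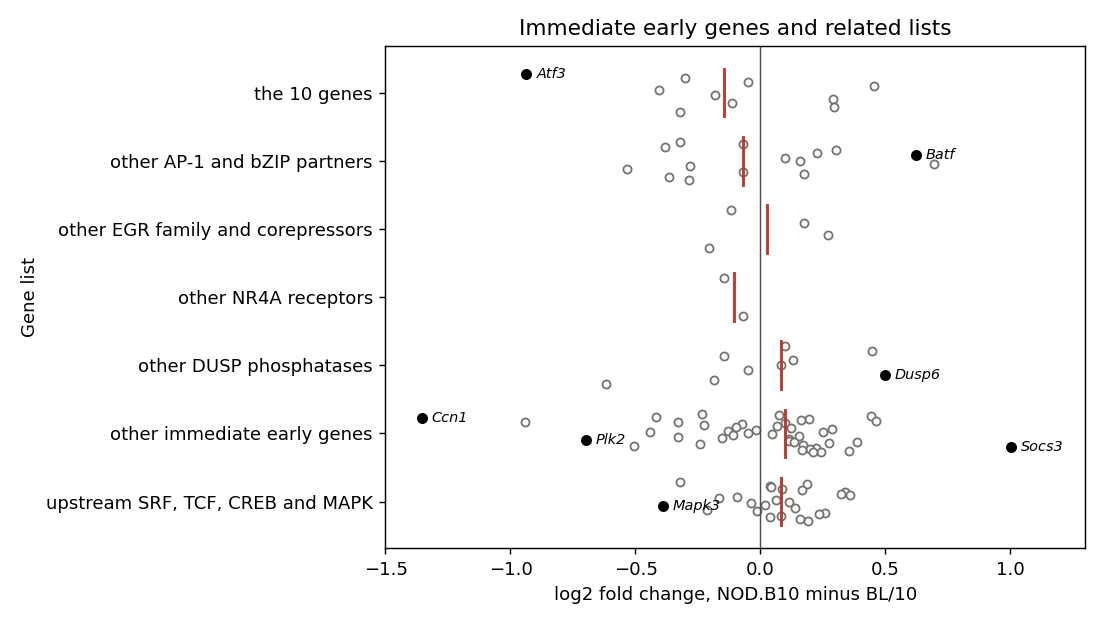
Log2 fold change (NOD.B10 minus BL/10, x axis) of the immediate early genes and of 6 lists of related genes (y axis), 1 point per tested gene, filled and named where the adjusted p in edgeR was under 0.05, with a red line at each median. Points lie on both sides of 0 in every list except the NR4A receptors, and Socs3 at 1.00 and Ccn1 at -1.36 are the farthest of the filled points.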

How the data were processed

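Single-end libraries were made from spleens of 3 females per strain. The authors deposited raw read counts per gene. Per the file headers, reads were counted with featureCounts version 1.5.1 on exons of Ensembl annotation 84 (GRCm38), with no option for strand. The paper names Tophat2 for mapping and the submitters' processing notes name HISAT2 version 2.0.5. Strain was taken from the descriptions and column names, which the titles contradict. Symbols from GENCODE M21 matched 47224 of 47729 identifiers.

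Counts were kept by filterByExpr, normalized by TMM and compared with edgeR version 4.0.16 in R version 4.3.3, with adjusted p under 0.05 as the threshold. Standard errors (SE) of log2 fold changes were derived from the F statistic. Log2 CPM used a prior count of 2. On simulated counts of 15138 genes, 114 of 114 genes with a log2 fold change of 2 and 72 of 84 with a change of 1 were found, with 12 calls among 14940 unchanged genes. Every simulated gene had the same dispersion, and changed genes had no change smaller than 1. Power for changes such as the median size of 0.30 over the 10 genes was thus not measured. The genes and lists were chosen with earlier results of these data known. The named genes were all 10 genes and the related genes past the threshold. Alternatives were DESeq2 version 1.42.0, limma-voom (limma version 3.58.1), other scaling, filters and thresholds, a replicate block, leaving out each library, and the 26 week libraries alone.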

Additional observations from a re-analysis of the deposited data

How the results depend on the processing

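Atf3 was the gene called in edgeR and remained the gene called with DESeq2, other scaling, other filters on low counts, the replicate block and limma-voom. With the 26 week libraries alone, 0 of the 10 genes, 1 related gene and 1001 of all genes were called by edgeR (1 of the 10 genes at an unadjusted p under 0.05), where the lone BL/10 library is assumed to vary like the NOD.B10 group. With adjusted p under 0.01, 0 of the 10 genes (5 at an unadjusted p under 0.05), 1 related gene and 1035 of all genes were called by edgeR. Leaving out each library gave 0 to 3 of the 10 genes, 1 to 19 related genes and 1269 to 4107 of all genes. The most calls came without BL/10 replicate 1, where 26 week NOD.B10 is set against 36 week BL/10 alone and strain cannot be told apart from age. The count of 0 came without NOD.B10 replicate 2, NOD.B10 replicate 3 or BL/10 replicate 3 (3, 3 and 1 genes at an unadjusted p under 0.05). Related genes called were 10 with DESeq2 and 13 with limma-voom. The replicate block gave 1 of the 10 genes, 12 related genes and 2889 of all genes. Same-numbered libraries did not deviate together throughout (correlations 0.18, 0.60 and -0.20). So few correlations cannot show whether these libraries share more than a number.

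Small differences changed direction. Fosb was at 0.18 with the 26 week libraries alone. With each library left out, Jun ran from -0.24 (without NOD.B10 replicate 1) to 0.0098 (without BL/10 replicate 3), and Egr1 ran from -0.24 to 0.11, above 0 without NOD.B10 replicate 2, BL/10 replicate 1 or BL/10 replicate 3 (0.11, 0.05 and 0.01). Egr1 was at -0.25 with the 26 week libraries alone. The cause was not tested. Fosb had the fewest reads of the 10 genes, with 19 to 31 reads per library.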
